A study of Mus musculus with 6 samples.

Results

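The triad is the junction of the muscle fibre at which a transverse tubule of the surface membrane runs between cisternae of the sarcoplasmic reticulum, the fibre's calcium store. There the voltage sensor in the tubule membrane opens the ryanodine receptor, the release channel of the store, while junctophilins hold both membranes together and triadin and junctin anchor the calcium buffer calsequestrin beneath the channel. When the store runs low, STIM proteins in its membrane open ORAI channels at the surface, which is called store-operated calcium entry. The 10 genes described here were chosen by symbol from the table of estimated counts. They are the release channels Ryr1 and Ryr3, the coupling proteins Stac3 and Jsrp1, the junctophilins Jph1 and Jph2, Trdn (triadin), Asph (which encodes junctin and aspartyl hydroxylase) and the store-operated pair Stim1 and Orai1. Each had 1 row among the 27131 genes of the table, and all 10 were among the 16960 genes tested.

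The libraries came from flash-frozen levator ani/bulbocavernosus (LA/BC), muscles of the pelvic floor that depend on androgens, taken from mice 14 weeks old. The 3 mice labelled 113Q carry a knock-in allele that models spinal and bulbar muscular atrophy (SBMA), an inherited disease of motor neurons and muscle. The 3 WT mice are the controls. Each mouse gave 1 library, and the labels give neither strain nor litter. The knock-in allele is not limited to muscle fibres, and the RNA is from whole muscle, so all cells of the tissue contribute. The comparison is of transcript levels between the genotypes.

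The estimated counts summed to between 67897870 and 73873481 in the 113Q libraries and to between 43581087 and 68983982 in the WT libraries. Values are given as CPM (counts relative to the library's total, scaled with TMM factors, which assume that most genes do not change). The 20 most abundant genes held 14.1% to 15.7% of the counts in 113Q and 30.8% to 32.7% in WT, and the TMM factors were 1.26 to 1.32 in 113Q and 0.768 to 0.794 in WT. The scaling therefore follows the genotype, and changes are relative to other genes. The 11 myofibre markers summed to between 42300 and 51100 CPM in 113Q and between 179000 and 203000 CPM in WT, and all 11 passed as lower. Their log2 fold changes ranged widely, from -4.55 to -0.82, and the list includes genes of fast fibres but no slow-fibre myosin. The 8 smooth muscle markers summed to 1480 to 3010 CPM in 113Q and 703 to 1200 CPM in WT (1 passed as higher and 1 as lower). The 8 epithelial markers summed to 1.25 to 92.5 CPM in 113Q and 2.07 to 58.4 CPM in WT. Their defining gene Epcam was at 0, 8.29 and 10.2 CPM in 113Q and at 0, 3.83 and 0.0385 CPM in WT. The 8 satellite cell markers summed to 234 to 249 CPM in 113Q and 150 to 185 CPM in WT (5 passed as higher), and the 10 endothelial markers to 332 to 345 CPM in 113Q and 483 to 598 CPM in WT (10 passed as lower). Among all genes tested, 18.1% passed as lower and 16.5% as higher. The sums of the fibroblast, macrophage, adipocyte, Schwann cell and lymphocyte markers overlapped between genotypes. The cardiac list summed to 62.7 to 118 CPM in 113Q and 558 to 696 CPM in WT, nearly all of it Sbk2. In RNA from whole tissue, fewer cells of a type, less RNA per cell and a change in the genes expressed cannot be told apart. The part of these markers in the results below was not tested.

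Promoters of 4 of the 10 genes were matched by symbol in the RefSeq table (build GRCm38.p6), which lists 2 windows for Jph2, of which the one at the start of the annotated gene is shown. All 4 are shown, so that the starts of Ryr1 and Jph2, which fell in 113Q, can be read beside those of Stim1 and Orai1, whose differences did not pass the test. Each window runs 5′ to 3′ on the gene's strand, from 250 bases before the start in that RefSeq table to 50 bases after it. For Ryr1 and Stim1 this start differs from that of the GENCODE coordinates given below. Capitals mark the E-box CANNTG, the core element read by myogenic basic helix-loop-helix factors.
Ryr1, chr7:29125102-29125401, minus strand: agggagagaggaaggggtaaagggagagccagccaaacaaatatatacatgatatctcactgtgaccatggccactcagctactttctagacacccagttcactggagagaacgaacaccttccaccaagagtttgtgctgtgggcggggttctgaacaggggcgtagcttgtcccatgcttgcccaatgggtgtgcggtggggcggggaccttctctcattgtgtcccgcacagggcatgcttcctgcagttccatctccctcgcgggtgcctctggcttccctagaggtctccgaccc
Jph2, chr2:163397944-163398243, minus strand: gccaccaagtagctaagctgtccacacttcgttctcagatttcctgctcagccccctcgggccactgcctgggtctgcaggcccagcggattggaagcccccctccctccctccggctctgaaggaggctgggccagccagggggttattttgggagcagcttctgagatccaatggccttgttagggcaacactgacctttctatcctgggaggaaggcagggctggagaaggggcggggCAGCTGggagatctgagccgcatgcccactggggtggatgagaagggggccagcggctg
Stim1, chr7:102267569-102267868, plus strand: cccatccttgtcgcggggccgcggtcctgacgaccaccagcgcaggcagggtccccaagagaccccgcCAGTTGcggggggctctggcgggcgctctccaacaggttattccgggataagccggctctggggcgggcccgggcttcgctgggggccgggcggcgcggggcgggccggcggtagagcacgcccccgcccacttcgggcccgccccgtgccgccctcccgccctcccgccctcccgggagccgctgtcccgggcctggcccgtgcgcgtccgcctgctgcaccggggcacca
Orai1, chr5:123014824-123015123, plus strand: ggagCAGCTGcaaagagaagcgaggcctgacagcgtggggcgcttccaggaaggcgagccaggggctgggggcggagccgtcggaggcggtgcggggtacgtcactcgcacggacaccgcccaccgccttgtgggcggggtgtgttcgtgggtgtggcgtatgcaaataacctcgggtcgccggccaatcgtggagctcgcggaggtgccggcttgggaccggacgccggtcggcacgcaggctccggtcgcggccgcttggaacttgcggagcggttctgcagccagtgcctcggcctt
CANNTG was searched on both strands and occurs in 72.3% of the 32851 promoter windows of this length. The Ryr1 window held 0 matches and the other windows 1 each. The matches in Jph2 and Orai1 read CAGCTG, a form found in 16.3% of all windows, and begin at positions -9 and -246, counted from -1 at the base before the start. The match in Stim1 begins at -182. The CAGGTG form (both strands, 20.2% of all windows) and the MEF2 motif (both strands, 0.557%) had 0 matches in any of these windows. The G and C content was 56.7% for Ryr1, 63.0% for Jph2, 78.7% for Stim1 and 70.3% for Orai1, against a median of 52.7% over all windows. These are descriptions of the letters in the windows, and binding was not measured.

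In 113Q muscle, 5 of the 10 triad genes were lower than in WT and 0 were higher (edgeR adjusted p below 0.05). Ryr1 fell most, to 0.346 of its WT level, followed by the junctophilins Jph2 (0.540) and Jph1 (0.584), then Trdn (0.709) and Jsrp1 (0.787). Stac3, Asph, Stim1, Orai1 and Ryr3 did not pass. Among all genes tested, 34.6% passed in either direction and 18.1% passed as lower, against 5 of these 10. The 10 had been chosen with earlier results of these data known. The same 5 were lower in every 113Q library than in every WT library, as were 24.8% of all genes, and the other 5 overlapped. The median log2 fold change of the 10 genes was -0.42, beside 0.01 over all genes tested. With library totals in place of TMM factors, the median of all genes moved by 0.72 on the log2 scale. Ryr1 was then the 1 gene of the 10 that passed as lower, and 5 passed as higher. Of all 16960 genes tested, 710 passed as lower and 11015 as higher in that scaling. With either scaling Stim1 was the only one of the 10 above the median of all genes, by 0.06, less than its SE of 0.104. Without WT mouse 2 (TMM factors) Stim1 was at -0.03, below the median of 0.03 in that fit.

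**Figure D1:**
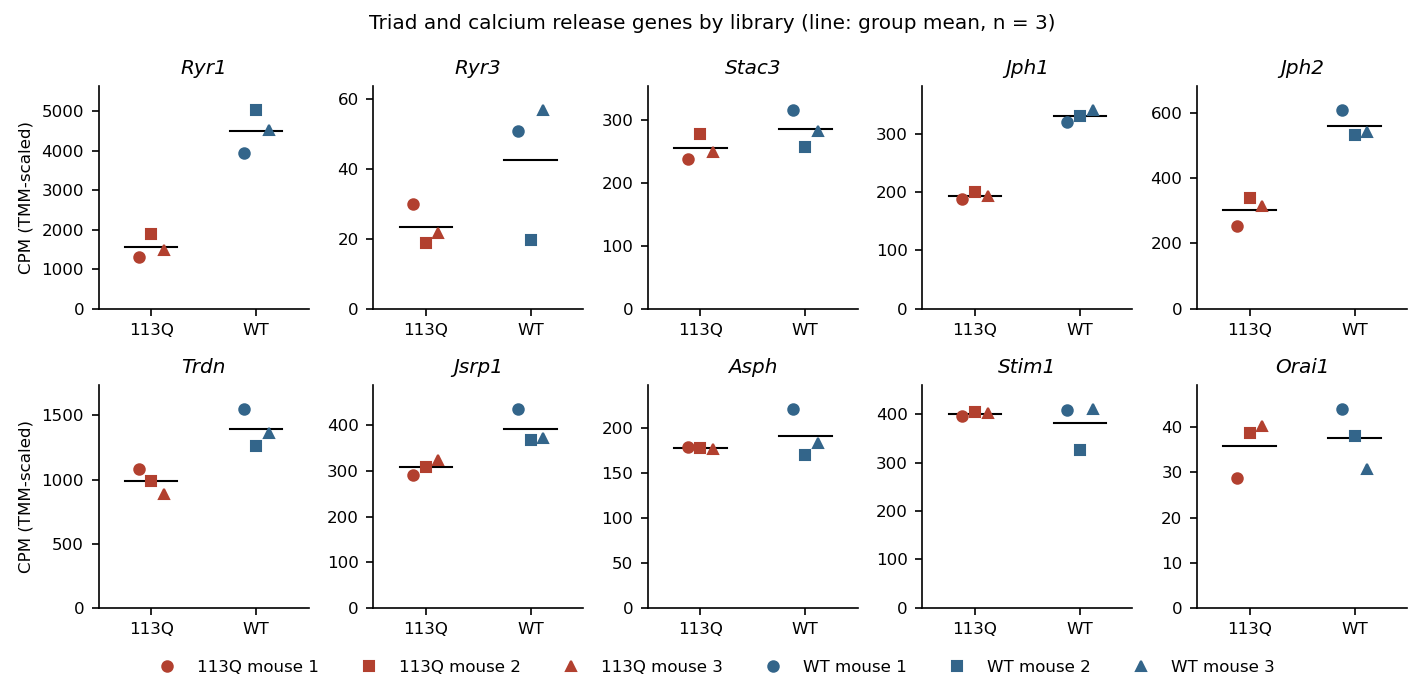
Each panel plots 1 gene, with CPM (TMM-scaled) on the vertical axis, 113Q libraries on the left, WT libraries on the right, a marker for each of the 3 mice and a line at the group mean. The groups separate fully for Ryr1, Jph1, Jph2, Trdn and Jsrp1, and overlap for the other genes.

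Ryr1 (chromosome 7, 29003344 to 29125179, minus strand, mm10/GRCm38) encodes the release channel of skeletal muscle. It was at 1311, 1878 and 1480 CPM in the 113Q libraries and at 3937, 5029 and 4521 CPM in the WT libraries. The highest 113Q library lay far below the lowest WT library. The mean was 1557 ± 291 CPM in 113Q and 4496 ± 546 CPM in WT (SD, n = 3 each), a log2 fold change of -1.53 (SE 0.153, edgeR adjusted p = 0.000219), lower than that of all but 3.11% of genes. Ryr1 passed as lower under all 19 alternative settings tried, with log2 fold changes from -1.69 to -0.81, the value nearest 0 being that with library totals alone. Within the summed counts of the 10 genes, which need no scaling between libraries, Ryr1 made up 32.8%, 40.6% and 36.2% in 113Q and 49.9%, 60.4% and 55.8% in WT. In all, 813 of its 15445 exonic bases are also covered, on the other strand, by the predicted genes Gm26604 and Gm44408. The strand setting of the counting is not given in the sources used here.

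Ryr3 (chromosome 2, 112631355 to 113217096, minus strand) encodes a release channel known from developing muscle and a few adult muscles of the mouse. It was at 30.0, 18.8 and 21.6 CPM in 113Q and at 50.8, 19.6 and 56.8 CPM in WT. WT mouse 2 stood apart from the other WT mice and lay within the 113Q range. The log2 fold change of -0.85 (SE 0.442, 95% interval -1.97 to 0.27) did not pass (edgeR adjusted p = 0.203). Without WT mouse 2 it was -1.20 and passed (edgeR adjusted p = 0.00569), and with only 113Q mouse 1 and WT mice 1 and 3, which lack epithelial transcripts, it was -0.84 and passed (edgeR adjusted p = 0.00739). That mouse is also the WT library with epithelial transcripts, and among the libraries with them (113Q mice 2 and 3, WT mouse 2) the log2 fold change was 0.04. Exons of Aven, on the other strand, cover 916 of 15683 exonic bases of Ryr3. Aven was at 14.3 to 18.1 CPM in 113Q and 15.9 to 18.6 CPM in WT.

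The junctophilins, which span the gap between tubule and reticulum, were both lower. Jph1 (chromosome 1, 16964560 to 17097889, minus strand) is the form typical of skeletal muscle, and it was at 187, 199 and 193 CPM in 113Q and at 321, 330 and 341 CPM in WT. Its libraries were the most uniform of the 10 genes in WT, with a coefficient of variation of 3.05% there and 3.08% in 113Q. Its log2 fold change was -0.78 (SE 0.0751, edgeR adjusted p = 0.000177). Jph2 (chromosome 2, 163336242 to 163397993, minus strand), which the heart also uses, was at 253, 340 and 315 CPM in 113Q and at 608, 531 and 541 CPM in WT. The groups did not overlap, and the log2 fold change was -0.89 (SE 0.122, edgeR adjusted p = 0.000963). Jph2 held 57.4%, 63.0% and 62.1% of the junctophilin counts (Jph1 plus Jph2) in 113Q and 65.5%, 61.7% and 61.4% in WT. The log2 ratio of Jph2 to Jph1 differed by -0.12 between genotypes (113Q 0.64 ± 0.18, WT 0.76 ± 0.14, SD, n = 3 each; exact permutation p = 0.6, two-sided, where 3 against 3 libraries cannot go below 0.1), and the ranges overlapped. With library totals alone both lost the call, at -0.06 for Jph1 (edgeR adjusted p = 0.526) and -0.17 for Jph2 (edgeR adjusted p = 0.2), values that lie below the median of all genes (0.73) in that scaling.

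Trdn and Jsrp1 encode proteins of the junctional reticulum membrane. Trdn (chromosome 10, 33080554 to 33476709, plus strand), whose product triadin binds the ryanodine receptor and calsequestrin, was at 1083, 985 and 890 CPM in 113Q and at 1549, 1261 and 1361 CPM in WT. All 3 of its 113Q libraries lay below all 3 WT libraries. It changed by -0.50 on the log2 scale (SE 0.113, edgeR adjusted p = 0.0101). It was -0.43 and did not pass in the libraries without epithelial transcripts, which include 1 113Q mouse (edgeR adjusted p = 0.0826), and it was 0.23 with library totals alone (edgeR adjusted p = 0.122). Jsrp1 (chromosome 10, 80808496 to 80813498, minus strand), whose product binds the voltage sensor and calsequestrin, was at 291, 309 and 325 CPM in 113Q and at 435, 367 and 372 CPM in WT. The groups did not overlap, but they came within a narrow gap of each other. The log2 fold change of -0.35 (SE 0.0954, edgeR adjusted p = 0.023) lost the call without 113Q mouse 1 (edgeR adjusted p = 0.0738), without 113Q mouse 2 (edgeR adjusted p = 0.073) and without WT mouse 1 (edgeR adjusted p = 0.0579), and also in both subsets split by epithelial transcripts (edgeR adjusted p = 0.0725 without them, 0.143 with them). With library totals alone Jsrp1 passed as higher, at 0.37 (edgeR adjusted p = 0.00619).

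Stac3, Asph, Stim1 and Orai1 had levels that overlapped between genotypes. Stac3 (chromosome 10, 127501686 to 127508823, plus strand) encodes the adaptor that links the voltage sensor to release, and it was at 239, 279 and 250 CPM in 113Q and at 317, 258 and 283 CPM in WT. Its 95% interval ran from -0.40 to 0.07 on the log2 scale around -0.16 (edgeR adjusted p = 0.266). Asph (chromosome 4, 9448069 to 9669344, minus strand) was at 179, 177 and 177 CPM in 113Q and at 221, 170 and 183 CPM in WT. The 113Q libraries were nearly equal, with a coefficient of variation of 0.664%, and lay inside the WT range. Its log2 fold change was -0.11, with a 95% interval from -0.34 to 0.13 (edgeR adjusted p = 0.477). A count for Asph pools the transcripts of junctin with those of aspartyl hydroxylase, and Clvs1, whose exons overlap 2368 of its 12101 exonic bases on the other strand together with those of Gm25677, had no more than 16 estimated counts in any library.

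Stim1 (chromosome 7, 102267806 to 102437319, plus strand), the calcium sensor of the store, was at 396, 404 and 403 CPM in 113Q and at 408, 326 and 411 CPM in WT. WT mouse 2 was the low library, and the others lay close together. Its log2 fold change was 0.07, with a 95% interval from -0.17 to 0.31 (edgeR adjusted p = 0.639). Orai1 (chromosome 5, 123015074 to 123030456, plus strand), the surface channel that STIM proteins open, was at 28.7, 38.8 and 40.3 CPM in 113Q and at 44.0, 38.0 and 30.7 CPM in WT. Libraries of both genotypes were spread over the same range, and the log2 fold change was -0.06, with a 95% interval from -0.45 to 0.33 (edgeR adjusted p = 0.803). With library totals alone Stac3 (0.56), Asph (0.62), Stim1 (0.79) and Orai1 (0.65) all passed as higher, at edgeR adjusted p = 0.00126, 0.000944, 0.000287 and 0.00501, in a scaling in which the median gene was also higher by 0.73.

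**Figure D2:**
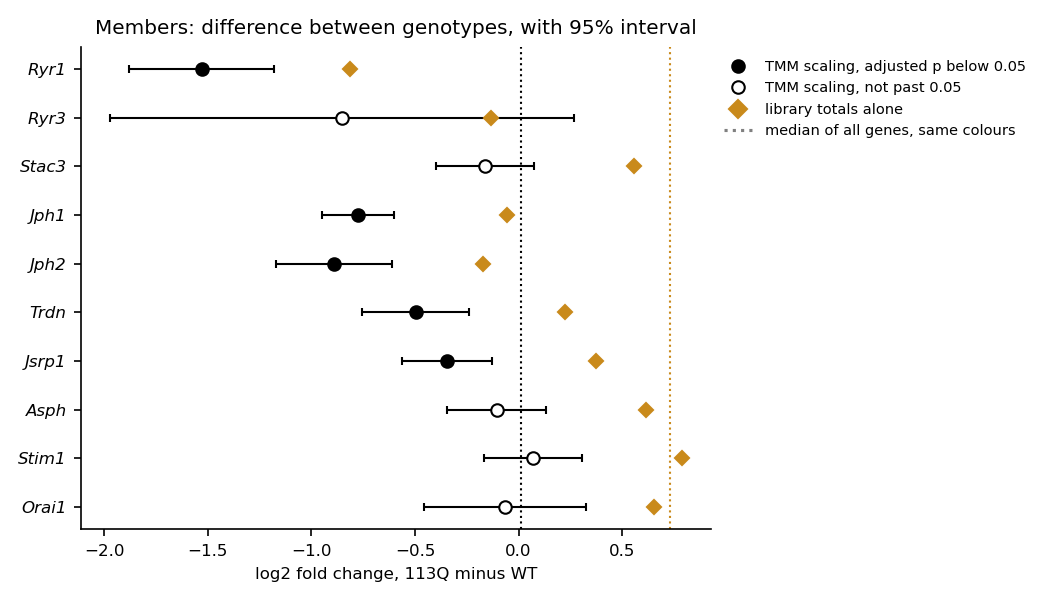
The log2 fold change of each gene, 113Q minus WT, is plotted with its 95% interval for TMM scaling (circles, filled where the edgeR adjusted p is below 0.05) and without interval for library totals alone (diamonds). Dotted lines mark the median of all genes in each scaling, at 0.01 and 0.73. The diamonds keep the order of the circles, since the scaling moves every gene by about the same amount. Stim1 is the only gene to the right of the median line in each scaling.

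Ratios within a library do not depend on scaling. Set against Ryr1 of the same library, 8 of the other 9 triad genes were higher in every 113Q library than in every WT library, and Ryr3 overlapped. Of all 16557 genes with counts in every library, 88.8% were higher relative to Ryr1 in the same way, so the share among the triad genes is close to that of genes in general. The median difference of all these genes relative to Ryr1 was 1.56 on the log2 scale. Stac3 (1.38) and Trdn (1.04) lay below that median, and of the 9 only Stim1 (1.62) lay above it. Per 100 counts of Ryr1 there were 18.2, 14.8 and 16.9 counts of Stac3 in 113Q and 8.04, 5.13 and 6.26 in WT. The ratio of Stac3 to Ryr1 was 2.60 times as high in 113Q, with no overlap between genotypes. Trdn stood at 82.6, 52.5 and 60.1 counts per 100 of Ryr1 in 113Q and at 39.4, 25.1 and 30.1 in WT, a ratio of 2.06 between genotypes. Stim1 had 30.2, 21.5 and 27.3 counts in 113Q and 10.4, 6.49 and 9.08 in WT, and shifted most of the 9, by 3.07 times. Over the 9 pairs fixed for testing, 5 did not overlap (Stac3, Trdn, Jsrp1, Asph and Cacna1s, each to Ryr1). Each of these had an exact permutation p = 0.1, two-sided, the smallest that 3 against 3 libraries can give, and 0.18 after Benjamini-Hochberg adjustment over the 9. The ratio of Orai1 to Stim1 differed by -0.14 on the log2 scale (113Q -3.50 ± 0.25, WT -3.35 ± 0.34, SD, n = 3 each; exact permutation p = 0.5). That of Ryr3 to Ryr1 differed by 0.80 (113Q -6.06 ± 0.60, WT -6.86 ± 0.99, SD, n = 3 each; exact permutation p = 0.4).

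Per kilobase of exon (CPM divided by the joined length of the annotated coding transcripts' exons, in GENCODE M21), the order of the levels differed between genotypes. Ryr1 ranked 4 in 113Q and 2 in WT, and Stim1 and Jph2 changed places, with Stim1 above Jph2 in 113Q and below it in WT without overlap in either genotype. In 113Q, Jsrp1 was highest at 269 CPM per kb, then Stac3 (140), Trdn (126), Ryr1 (101), Stim1 (90.1), Jph2 (71.1), Jph1 (40.2), Orai1 (19.2), Asph (14.7) and Ryr3 (1.496). Stac3 and Trdn, Trdn and Ryr1, and Ryr1 and Stim1 overlapped as neighbours there. In WT, Jsrp1 (342) was followed by Ryr1 (291), Trdn (177), Stac3 (156), Jph2 (132), Stim1 (85.8), Jph1 (68.7), Orai1 (20.04), Asph (15.8) and Ryr3 (2.70). Jsrp1 and Ryr1, Trdn and Stac3, Stac3 and Jph2, and Orai1 and Asph overlapped as neighbours in WT. Asph is understated on this scale, since its length joins the alternative ends of 12 coding transcripts. The lengths of the others, except Jph1, also join more than 1 (4 for Trdn, 5 for Ryr3). The order therefore depends on this choice of length.

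**Figure D3:**
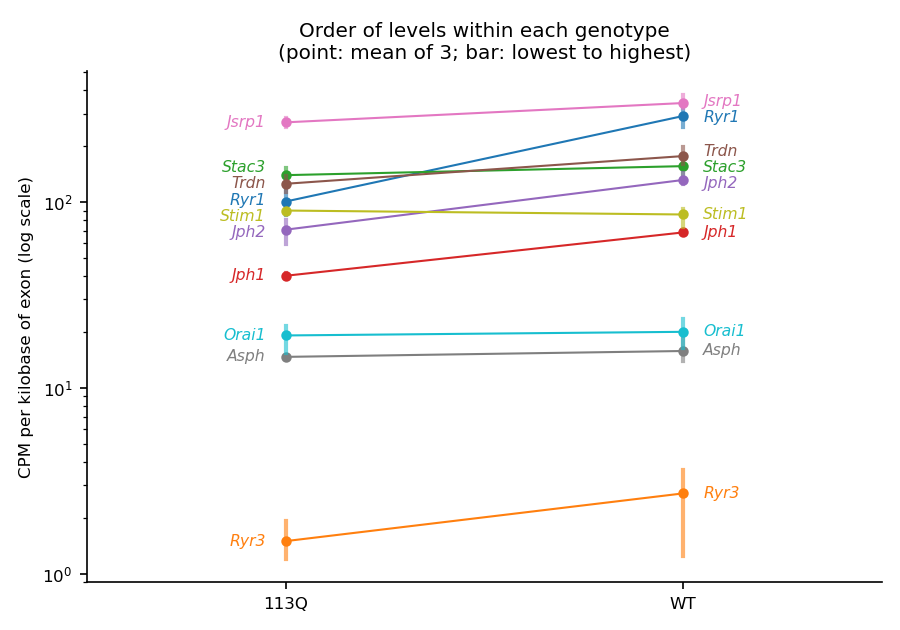
Mean levels (points) with the lowest and highest library (bars) are plotted per kilobase of exon on a log axis for 113Q on the left and WT on the right, with a line joining each gene. Ryr1 is at 101 CPM per kb in 113Q, among Trdn and Stim1, and at 291 CPM per kb in WT, next to Jsrp1.

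The rest of the calcium machinery moved in both directions. Of 67 tested genes in 8 lists around the triad, 24 were lower and 11 higher in 113Q. Thus 52.2% passed, against 34.6% of all genes, and the median log2 fold change of the 67 was -0.16. These lists too were chosen with earlier results of these data known, so the shares here and below are descriptions only. The voltage sensor list had 3 of 5 genes lower and 0 higher, with a median of -0.87. Its pore subunit Cacna1s was at 515, 603 and 571 CPM in 113Q and 976, 1204 and 1014 CPM in WT (log2 fold change -0.92, edgeR adjusted p = 0.000498). The gamma subunits Cacng1 and Cacng6 had log2 fold changes of -1.08 and -0.87 (edgeR adjusted p = 0.00203 and 0.00255), and Cacna2d1 did not pass (-0.19). All 3 of the called subunits lost the call with library totals alone (edgeR adjusted p = 0.108, 0.073 and 0.324).

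Of 16 genes of triad membranes and anchoring, 10 were lower, 1 was higher and 5 did not pass, with a median of -0.50. The share called was 68.8%, against 34.6% of all genes tested, and 18.1% of all genes tested passed as lower. Bin1, which shapes the transverse tubule, was at 644, 663 and 708 CPM in 113Q and 1362, 1057 and 1260 CPM in WT (log2 fold change -0.87, edgeR adjusted p = 0.000651). Speg, a kinase of the triad, had a log2 fold change of -1.005 (edgeR adjusted p = 0.000308). Ldb3, a protein of the Z-disc, had a log2 fold change of -0.94 (edgeR adjusted p = 0.000256). With library totals alone Speg kept its call (-0.28, edgeR adjusted p = 0.0299), while Bin1 (-0.15, edgeR adjusted p = 0.252) and Ldb3 (-0.22, edgeR adjusted p = 0.0605) lost theirs.

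Of 13 regulators of the release channel, 4 were lower, 1 was higher and 8 did not pass, a share called of 38.5% that is near the 34.6% of all genes. Camk2a, a subunit of the calmodulin-dependent kinase, Calm2, which encodes calmodulin, and S100a1, a calcium-binding protein that acts on the channel, had log2 fold changes of -0.78, -0.72 and -0.38 (edgeR adjusted p = 0.00223, 0.000361 and 0.0136). Sepn1, a selenoprotein of the reticulum, was at 18.2, 12.1 and 13.9 CPM in 113Q and 8.70, 9.89 and 9.74 CPM in WT (log2 fold change 0.64, edgeR adjusted p = 0.0156). S100a1 lost its call without 113Q mouse 2 (edgeR adjusted p = 0.0536) and Sepn1 without WT mouse 1 (edgeR adjusted p = 0.0542). Among the libraries with epithelial transcripts neither passed (edgeR adjusted p = 0.068 for S100a1, 0.109 for Sepn1), nor did S100a1 among those without (edgeR adjusted p = 0.0739). With library totals alone Camk2a (-0.06) and Calm2 (0.01) lost theirs, and S100a1 passed as higher (0.34). Of the 4 other release channels tested, Ryr2, Itpr1, Itpr2 and Itpr3, 0 passed with edgeR (2 had an unadjusted p below 0.05), 0 passed with voom, and 1, Itpr2, passed as lower with DESeq2 (adjusted p = 0.0497). Itpr2 was at -0.50 with all libraries and passed at -0.96 among the libraries with epithelial transcripts (edgeR adjusted p = 0.00591). Ryr2 (3.00), Itpr1 (0.92) and Itpr3 (0.76) passed as higher with library totals alone (edgeR adjusted p = 0.0328, 0.00126 and 0.0463). Ryr2, the cardiac release channel, was at 5.87, 3.39 and 1.59 CPM in 113Q and 0.0592, 1.02 and 1.10 CPM in WT (edgeR adjusted p = 0.11).

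In the lumen of the reticulum, 2 of 7 genes were lower and 2 were higher, so 57.1% passed. Among all genes tested 34.6% passed, 18.1% as lower and 16.5% as higher. Casq1, the main calsequestrin of skeletal muscle, was at 1149, 1213 and 1297 CPM in 113Q and 2864, 2608 and 3105 CPM in WT (log2 fold change -1.23, edgeR adjusted p = 8.16e-05). Casq2, the calsequestrin of heart that slow fibres have beside Casq1, was at 738, 610 and 708 CPM in 113Q and 390, 278 and 364 CPM in WT (log2 fold change 0.99, edgeR adjusted p = 0.0011). Hrc, a histidine-rich calcium-binding protein that triadin binds, had a log2 fold change of -0.56 (edgeR adjusted p = 0.00265, but 0.16 and not called with library totals alone), and Calr, the chaperone calreticulin, of 0.53 (edgeR adjusted p = 0.00446). The calls of Casq1 and Casq2 held under all 19 alternatives, while Calr lost its call in the libraries without epithelial transcripts (0.35, edgeR adjusted p = 0.123). Reuptake also divided, with 3 of 6 genes lower and 2 higher, so 83.3% passed. The fast pump Atp2a1 had a log2 fold change of -1.36 and the pump of slow fibres and heart Atp2a2 of 1.19 (edgeR adjusted p = 9.54e-05 and 0.000161). The pump inhibitor myoregulin, listed as 2310015B20Rik, had one of -1.04 (edgeR adjusted p = 0.000391). Pln, the pump inhibitor phospholamban of slow, cardiac and smooth muscle, was at 67.1, 17.6 and 49.2 CPM in 113Q and 1.16, 2.51 and 1.66 CPM in WT (log2 fold change 4.62, edgeR adjusted p = 0.00543). It lost the call among the 3 libraries with epithelial transcripts (3.73, edgeR adjusted p = 0.327). The summed smooth muscle markers given above were also higher in every 113Q library than in every WT library, though of the 8, Acta2 passed as higher (2.38, edgeR adjusted p = 0.037), Synpo2 passed as lower (-1.16, edgeR adjusted p = 9.99e-05) and 6 did not pass, and their part in the level of Pln was not tested.

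**Figure D4:**
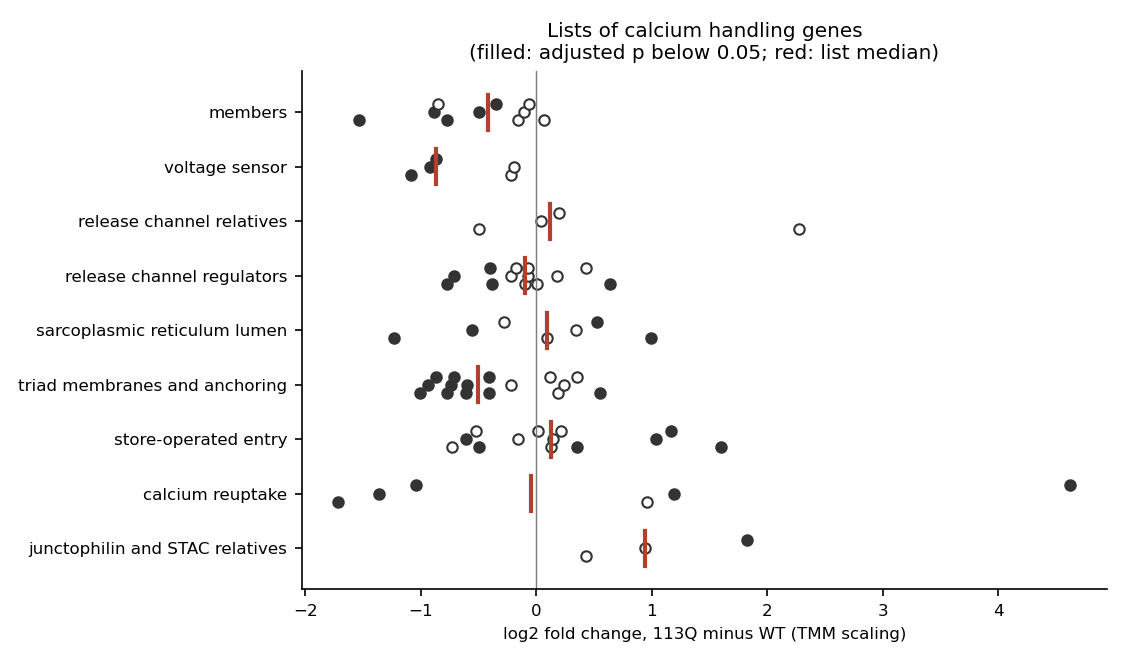
Each point is 1 tested gene, placed by its log2 fold change (113Q minus WT, TMM scaling) and filled where the edgeR adjusted p is below 0.05, with the triad genes in the top row, the 8 lists of related genes below them and the list medians in red. Filled points lie on both sides of 0 for the regulator, lumen, membrane and anchoring, store-operated entry and reuptake lists. They lie to the left of it for the triad genes and the voltage sensor.

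Of 13 other genes of store-operated entry, 4 were higher, 2 lower and 7 did not pass, so 46.2% passed, against 34.6% of all genes tested, of which 16.5% passed as higher. Stim2 and Orai2 were among the 4, and Orai3 did not pass (0.15, edgeR adjusted p = 0.311). Stim2, a further calcium sensor of the store, was at 36.7, 39.7 and 42.2 CPM in 113Q and 19.9, 20.7 and 17.1 CPM in WT. The genotypes did not overlap, and the log2 fold change was 1.04 (SE 0.103, edgeR adjusted p = 0.000203). Orai2, a relative of Orai1, was at 5.10, 3.54 and 4.36 CPM in 113Q and 1.57, 1.91 and 2.31 CPM in WT (log2 fold change 1.17, SE 0.228, edgeR adjusted p = 0.00518). The calls of Stim2 and Orai2 held under all 19 alternatives. Efcab4b, a calcium-binding regulator of ORAI channels, was low throughout, at 0.313 to 0.590 CPM in 113Q and 0.135 to 0.178 CPM in WT (log2 fold change 1.60, edgeR adjusted p = 0.0224), and lost the call in 5 of the 6 fits that leave out 1 mouse, with edgeR adjusted p from 0.0534 to 0.0954. Sept4, a septin, had a log2 fold change of -0.61 (edgeR adjusted p = 0.00312, but 0.11 and not called with library totals alone, and not called in the libraries without epithelial transcripts, edgeR adjusted p = 0.106).

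The share of a relative within its family needs no scaling between libraries, and these shares were chosen after the values had been seen. Stim2 made up 8.49%, 8.96% and 9.47% of the STIM counts in 113Q and 4.65%, 5.96% and 3.99% in WT. Orai2 made up 9.66%, 5.70% and 7% of the ORAI counts in 113Q and 2.47%, 3.31% and 4.78% in WT, while Orai3 held 36.0%, 31.9% and 28.4% in 113Q and 28.4%, 30.7% and 31.6% in WT. The genotypes separate for Stim2 and Orai2 and not for Orai3. Casq2 held 39.1%, 33.4% and 35.3% of the calsequestrin counts in 113Q and 12%, 9.62% and 10.5% in WT. Ryr3 held 2.23%, 0.987% and 1.44% of the ryanodine receptor counts in 113Q and 1.27%, 0.388% and 1.24% in WT, with overlap.

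**Figure D5:**
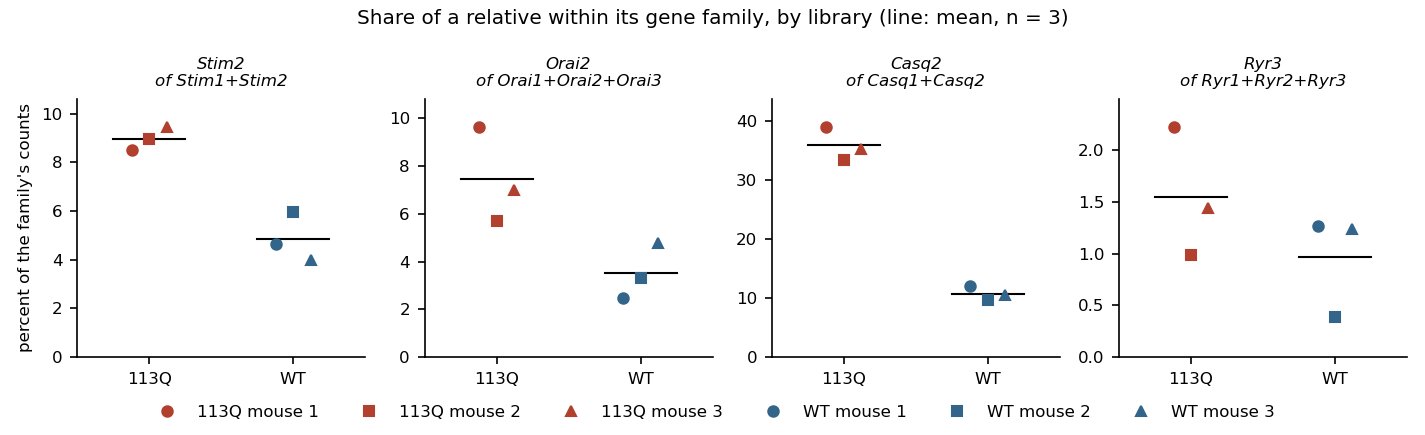
The percent of a family's counts held by 1 relative is plotted for each library, 113Q on the left and WT on the right, with a line at the mean of 3 mice. Stim2, Orai2 and Casq2 are higher in every 113Q library than in every WT library, and Ryr3 overlaps.

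Among the other relatives, Jph4, a junctophilin known from the nervous system, was at 2.08, 2.34 and 1.56 CPM in 113Q and 0.385, 0.604 and 0.674 CPM in WT (log2 fold change 1.83, edgeR adjusted p = 0.00276). Its levels were far below those of Jph1 and Jph2. Stac and Stac2, the relatives of Stac3, did not pass and stayed below 2 CPM in every library. Jph3 was too low to be tested.

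The 5 genes whose profile over the 6 libraries was nearest to that of Ryr1, among 10569 genes of at least 5 CPM, were Synm, Ldhd, 3425401B19Rik, Trim24 and Parm1. The root mean square distance of their centred log2 CPM from that of Ryr1 ranged from 0.0836 for Synm to 0.101 for Parm1. Synm, which encodes the intermediate filament protein synemin, was at 354, 450 and 358 CPM in 113Q and 1096, 1266 and 1219 CPM in WT.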

How the data were processed

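RNA from the LA/BC muscle of 3 113Q and 3 WT mice was made into TruSeq mRNA libraries and sequenced, per the labels. The deposited table holds estimated counts per gene, made by the authors with Cuffdiff 2.1.1 after alignment with TopHat2 2.0.9 and Bowtie2 2.1.0 to mm10, with FastQC 0.10.0, Cufflinks and cutadapt also named, per the submitters' processing notes. Neither the annotation nor the counting's strand setting is given there. Of the values, 5.38% to 5.96% per library were not whole, and all were rounded. Genes were kept by edgeR's filterByExpr (minimum count 10) and tested with edgeR 4.0.16 (R 4.3.3; TMM factors, robust quasi-likelihood F test, two-sided, Benjamini-Hochberg adjustment over all 16960 genes, threshold 0.05). SE is the log2 fold change divided by the root of F, and intervals are 95%. Ratios were compared by an exact permutation test over the 6 libraries (two-sided). DESeq2 1.42.0 and voom in limma 3.58.1 were alternatives.

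The 10 genes and all lists were chosen with earlier results of these data known. Named genes are the 10, up to 4 of each pathway list with the smallest p, the 2 tested markers of highest CPM for each cell type, Acta2 and Epcam, and the 5 nearest to Ryr1, apart from results not reported here. Orai3, Synpo2 and the overlapping genes Aven and Clvs1 were named outside this rule, after their values were seen. Where nothing says the mice came from separate litters, p-values measure the spread between these samples. No pair of libraries held identical values. Each of the 10 genes had at least 1038 counts in every library. In simulated data with 16185 genes, both groups were drawn from WT means and 200 genes were changed, in both directions. There, 31.3%, 65.7% and 95.5% of genes changed 1.5, 2 and 4 times were recovered, and 8.57% of calls were false. In the real comparison 34.6% of genes were called and the scaling followed the genotype, so these rates need not hold for it. Exon lengths are from GENCODE M21 (GRCm38, the build of mm10).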

Additional observations from a re-analysis of the deposited data

How the results depend on the processing

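Of 19 alternatives, the Ryr1 call held in all 19, those of Jph1 and Jph2 in 18 and that of Trdn in 17, while Jsrp1 was called in 13, in 1 of them as higher. With library totals alone, 11725 of 16960 genes were called, 11015 higher and 710 lower. Of the 10 genes, 5 were called higher and 1 lower, and of the 67 list genes 41 higher and 4 lower. The log2 fold changes were then 0.62 for Asph, -0.056 for Jph1, -0.17 for Jph2, 0.37 for Jsrp1, 0.65 for Orai1, 0.56 for Stac3, 0.79 for Stim1, 0.23 for Trdn, 0.53 for Cacna2d1, 0.0054 for Calm2, 0.16 for Hrc, 0.23 for Itpr2, 0.34 for S100a1 and 0.11 for Sept4, in a scaling that raises every value by about the shift of the median gene, 0.72. Subsets by epithelial transcripts were chosen after seeing the data. Without these transcripts (Epcam below 1 CPM; 1 113Q and 2 WT libraries, so fewer samples) 3127 genes were called, 1300 higher and 1827 lower, with Itpr3 at -0.13, Jsrp1 at -0.47, Ryr3 at -0.84, Stim1 at -0.050 and Trdn at -0.43. With them (2 113Q and 1 WT) Itpr1 was at -0.030, Itpr3 at -0.26, Asph at 0.055, Jsrp1 at -0.22, Orai1 at 0.051, Ryr3 at 0.038 and Stac3 at 0.029. In these the lone library is assumed to vary like the other group. A term for epithelial transcripts gave -0.19 for Itpr3. Leaving out 1 mouse gave -0.19 to 0.36 for Itpr3, -0.18 to 0.0085 for Asph, -0.39 to -0.26 for Jsrp1, -0.19 to 0.081 for Orai1, -1.20 to -0.58 for Ryr3 and -0.031 to 0.13 for Stim1. The labels do not say whether the replicate numbers pair the mice. Same-numbered libraries had correlations of 0.0789, 0.142 and -0.285, beside largest values of 0.321, -0.0178 and 0.298 with other numbers. With so few libraries these correlations cannot decide it. A replicate block called 4737 genes, with Jsrp1 at -0.34 (edgeR adjusted p = 0.0629). DESeq2 called 6500 genes and voom 5789. Apart from the shift that the scaling itself gives, the cause of these changes was not tested. Efcab4b had no more than 55 counts in a library.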
